A study of Equus caballus with 8 samples.

Results

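Transcription factors that direct the formation of tendon, cartilage and bone were followed in equine mesenchymal stem cells of the bone marrow (BM-MSCs) treated with TGF-β2. The 10 genes were chosen by symbol (SCX, MKX, SOX9, SOX5, SOX6, RUNX1, RUNX2, RUNX3, SOX4 and SOX11). All 10 had a row among the 15266 named genes, and all 10 passed the filter on low values, as did 14907 genes in all. BM-MSCs are stromal cells grown from sternal marrow on plastic, here from 4 horses (D, J, L and W). The cells of each horse were divided into an untreated culture and a culture given 1 ng/ml human recombinant TGF-β2 from isolation through passage 3 or 4, which gave 4 untreated and 4 treated libraries. The study's text gives the exposure as 3 passages. All cultures received basal medium with fetal bovine serum and, by the study's methods, basic fibroblast growth factor, so the untreated cells were not growth factor-free. The labels give neither the age of each horse nor which library is from which passage, and each culture is a mixed, unsorted population. The values are normalized counts, gene counts divided by 1 size factor per library, from libraries of 39184554 to 57228675 counted reads. Gene lengths of the build used for alignment were not used here, so levels are compared between libraries and not between genes.

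Tendon, cartilage and bone arise from shared mesenchymal progenitors, and a small set of transcription factors marks each path. Scleraxis (SCX) and Mohawk (MKX) are the factors of tendon progenitors and tendon maturation, SOX9 with its partners SOX5 and SOX6 forms the trio that switches on cartilage matrix genes, and RUNX2 is required for osteoblasts. RUNX1 and RUNX3 are related factors best known in blood cells and also used in the skeleton, and SOX4 and SOX11 are closely related factors that keep mesenchymal progenitors alive and are also active in neurons. TGF-β signals through SMAD2 and SMAD3 and is known as an inducer of SCX in tendon progenitors and of SOX9 in condensing cartilage.

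SCX, MKX, SOX9 and SOX11 rose after TGF-β2 treatment and SOX5 fell, whereas SOX6, SOX4 and the 3 RUNX genes were not called. A gene was called at a Benjamini-Hochberg adjusted p under 0.05 over all tested genes and an absolute log2 fold change over 1, from limma on log2(normalized count + 1) with the horse as a block. With these thresholds 14.1% of all tested genes were called, 6.83% higher and 7.31% lower, against 4 higher and 1 lower of the 10 factors. The same 5 factors were called without the horse in the model, where 11.5% of all genes were called. The median log2 fold change of the 10 factors was 0.46 and that of all tested genes 0.01. In 6 of the 10 factors all 4 horses moved the same way, compared with 51.9% of all tested genes. In 3 of them, SCX, SOX9 and SOX5, the treated and untreated libraries did not overlap, compared with 27.8% of all tested genes.

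**Figure D1:**
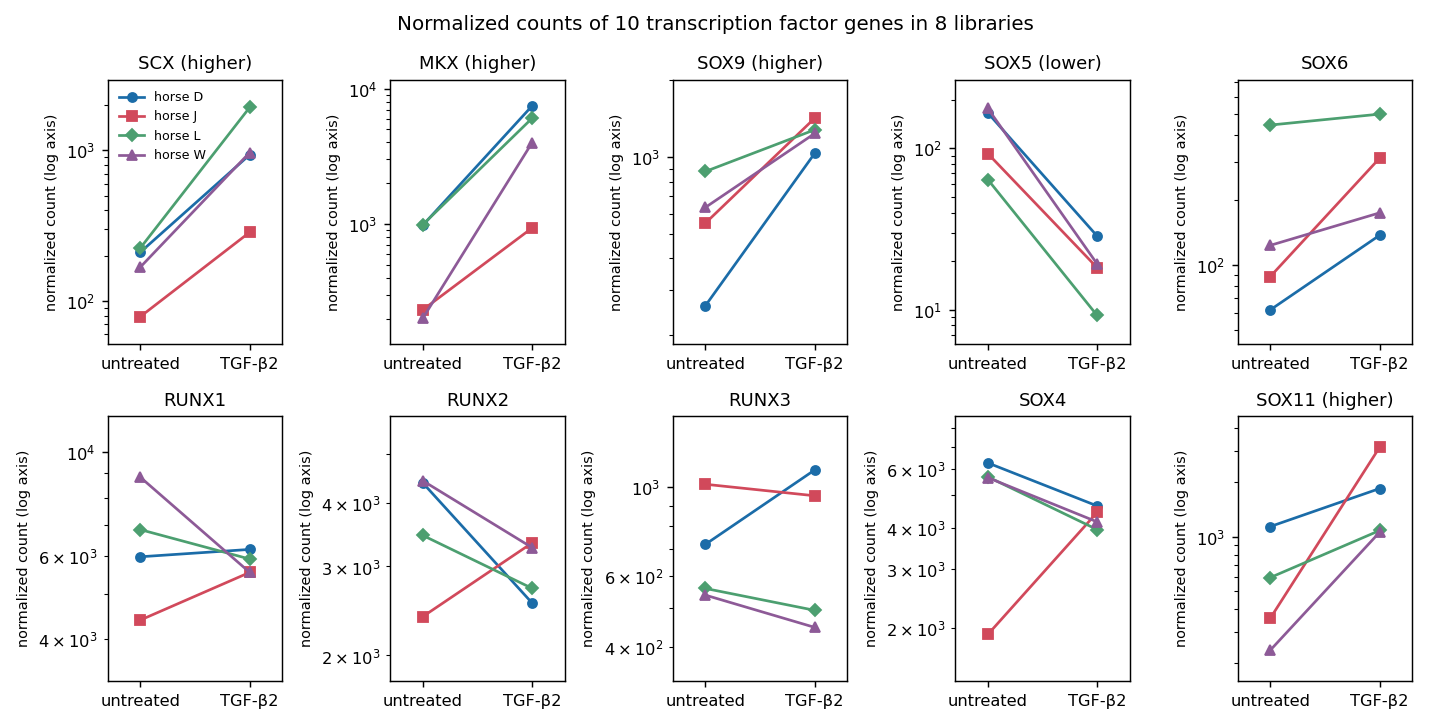
Normalized counts of the 10 transcription factor genes (y axis, logarithmic, a separate scale for each gene) without and with TGF-β2, with a line joining the 2 libraries of each horse. SCX, MKX, SOX9 and SOX11 climb in every horse and SOX5 drops in every horse, while the lines of RUNX2 and SOX4 go up in horse J and down in the others.

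SCX, a basic helix-loop-helix (bHLH) factor and the earliest marker of tendon progenitors, rose in every horse. The untreated libraries of horses D, J, L and W held 211, 78.8, 225 and 168 normalized counts of SCX. After TGF-β2 the same horses held 935, 286, 1929 and 967. Even the lowest treated library, that of horse J, lay above the highest untreated one. The mean of SCX went from 171 ± 66.0 to 1029 ± 677 normalized counts (SD, n = 4). This was a log2 fold change of 2.40 (standard error, SE, 0.22), a 5.27-fold increase with a 95% interval of 3.58 to 7.77, and the limma adjusted p was 0.00278. In single horses the log2 change of SCX ran from 1.85 in J to 3.09 in L. The span of BOP1, a ribosome biogenesis gene, overlaps that of SCX in RefSeq's gene table of the TB-T2T horse assembly. BOP1, at a log2 fold change of 0.48 (SE 0.12), was not called, and whether strand was used in counting is not given in the sources used here.

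MKX, a homeobox factor of the TALE class that is needed for the growth of tendon collagen fibrils, had the largest log2 fold change of the 10 factors. The untreated libraries of D, J, L and W held 983, 234, 993 and 203 normalized counts. The treated ones held 7455, 939, 6046 and 3996. MKX thus rose in every horse, but the treated level of J stayed just below the untreated levels of D and L, and the groups overlapped by this 1 library. The mean was 603 ± 445 in untreated and 4609 ± 2829 in treated cells (SD, n = 4). The log2 fold change of 2.96 (SE 0.36) corresponded to a 7.76-fold increase with a 95% interval of 4.15 to 14.5 (limma adjusted p = 0.00493). The rise was steepest in horse W, 19.7-fold, and smallest in horse J, 4.02-fold. Horse J had the lowest treated level of both tendon factors. The ratio of SCX to MKX changed by -1.78 to 0.49 on the log2 scale between horses and was lower after treatment in 3 of 4 (exact sign-flip permutation test over the 4 horses, two-sided p = 0.375, where 0.125 is the smallest value the design allows, so that no change of a ratio could pass 0.05).

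SOX9, the master regulator of chondrocytes, rose to a similar level in all horses. Untreated libraries of D, J, L and W held 261, 550, 877 and 634 normalized counts, and treated ones 1033, 1419, 1278 and 1236. The groups did not overlap. The highest untreated library was 3.36 times the lowest, and the highest treated library 1.37 times the lowest. The horse with the lowest untreated level, D, rose most, by 1.98 on the log2 scale, and the horse with the highest, L, rose least, by 0.54. The mean went from 581 ± 254 to 1241 ± 159.5 (SD, n = 4). Its log2 fold change was 1.21 (SE 0.24; limma adjusted p = 0.0175). With each library scaled to the same total, its log2 fold change was 0.90, under the threshold of 1. Without horse D or without horse W the limma adjusted p was 0.0519 and 0.0713.

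SOX5 and SOX6 encode closely related partners of SOX9 that lack an activation domain of their own and help SOX9 bind cartilage enhancers. SOX5 had 166, 92.9, 64.1 and 177 normalized counts in the untreated libraries of D, J, L and W and 28.6, 18.2, 9.20 and 19.2 in the treated ones. Every treated library was below every untreated library. These treated values rest on 8 to 24 reads. The lowest count, 8 reads in horse L, has an exact Poisson interval of 3.45 to 15.8 reads at 95%, which covers counting error only. The mean fell from 125 ± 55.1 to 18.8 ± 7.93 (SD, n = 4), and the log2 fold change of -2.65 (SE 0.23) had a limma adjusted p of 0.00230. The decrease was alike in size across horses, from -3.13 in W to -2.29 in J.

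SOX6 did not follow SOX5. In the untreated libraries of D, J, L and W it had 61.8, 88.2, 444 and 123 normalized counts, and in the treated ones 137, 312, 499 and 174. It was higher in the treated culture of every horse, by 0.17 in L to 1.81 in J on the log2 scale, but horse L was highest in both groups and the groups overlapped. The log2 fold change was 0.90 with a 95% interval of 0.17 to 1.64, and the limma adjusted p was 0.0688, or 0.350 without the horse as a block, so SOX6 was not called. DESeq2 with the horse gave an adjusted p of 0.0224 at a log2 fold change of 0.90. The ratio of SOX5 to SOX6 was lower after treatment in all 4 horses, by -4.10 to -2.84 on the log2 scale (exact sign-flip permutation test, two-sided p = 0.125, the smallest value 4 horses allow). The ratio of SOX5 to SOX9 was likewise lower in 4 of 4 horses, by -4.48 to -3.22, also with p = 0.125 in this exact test, whereas the ratio of SOX6 to SOX9 was lower in 3 of 4 (p = 0.375, exact test). Adjusted over the 7 ratios compared in this way the smallest exact p was 0.175.

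**Figure D2:**
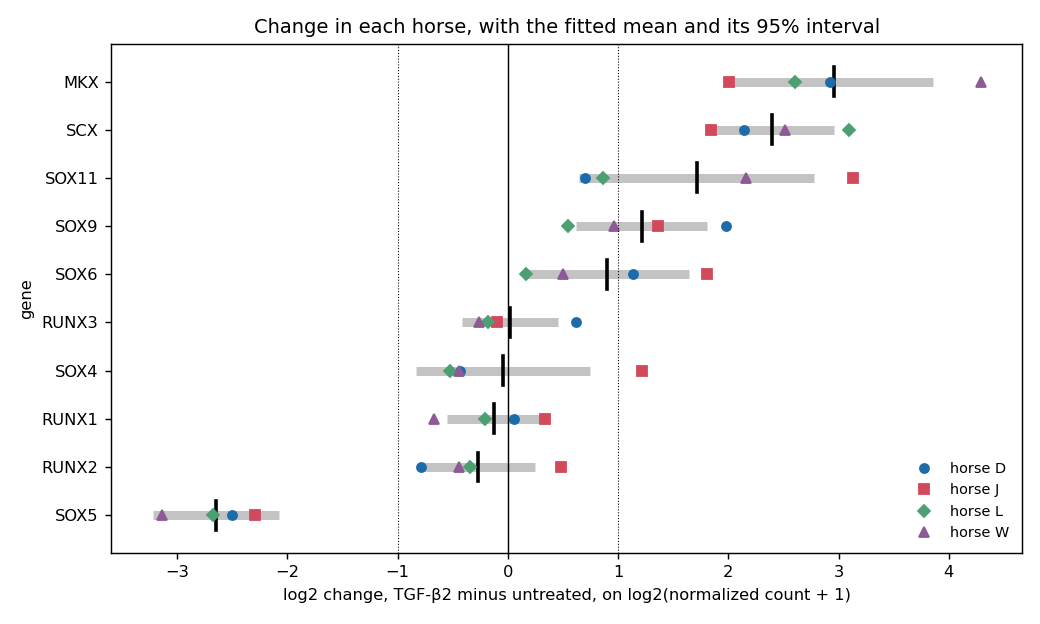
Log2 change between the treated and the untreated library of each horse (points), with the fitted mean (black tick) and its 95% interval (grey bar) from limma with the horse as a block, for the 10 factors in order of their mean. Dotted lines mark a log2 change of 1 in either direction, and the bars of MKX, SCX and SOX5 lie wholly beyond them, whereas those of RUNX1, RUNX2, RUNX3 and SOX4 cross zero.

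The RUNX genes encode the DNA-binding subunits that pair with CBFB. RUNX1 had 5990, 4397, 6839 and 8832 normalized counts in the untreated libraries of D, J, L and W and 6209, 5550, 5924 and 5550 in the treated ones. It was higher after treatment in D and J and lower in L and W, and the treated libraries lay closer together (highest over lowest 1.12) than the untreated ones (2.01). The log2 fold change was -0.12 with a 95% interval of -0.55 to 0.30 (limma adjusted p = 0.616). RUNX2 had 4389, 2388, 3456 and 4433 normalized counts without and 2539, 3341, 2715 and 3269 with TGF-β2. It was lower in the treated culture of D, L and W and higher in that of J. Its log2 fold change of -0.27 (95% interval -0.79 to 0.25) had a limma adjusted p of 0.36. Without horse J it was -0.53 (limma adjusted p = 0.0207), still short of the fold change threshold. Leaving out D, L or W instead gave -0.10, -0.25 and -0.22 (limma adjusted p = 0.784, 0.542 and 0.613). RUNX3 had 720, 1017, 559 and 538 normalized counts in untreated and 1104, 952, 493 and 447 in treated cells of D, J, L and W. Horses D and J were above L and W in both groups. The log2 fold change of RUNX3 was 0.02 (95% interval -0.41 to 0.45, limma adjusted p = 0.944), and with total scaling it was -0.29. On the deposited scale the 95% intervals of all 3 RUNX genes lie within a log2 change of 1 in either direction.

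Around the RUNX genes, 9 partners and co-regulators were listed, of which 7 were tested, 1 rose and 1 fell. Of all tested genes 6.83% were called higher and 7.31% lower. The median log2 fold change of the 7 was -0.39. CBFB, the obligate partner, had 3015 ± 162 and 2608 ± 882 normalized counts (SD, n = 4), with a log2 fold change of -0.27 and a limma adjusted p of 0.315. RUNX1T1, a corepressor known as the fusion partner of RUNX1 in leukaemia, rose from 836 ± 149 to 3177 ± 1155, by 1.86 on the log2 scale (limma adjusted p = 0.00210). TLE4, a Groucho-type corepressor that binds RUNX proteins, fell from 5020 ± 1176 to 1805 ± 225, with a log2 fold change of -1.45 (limma adjusted p = 0.00219). Both were named because they were called, and both moved in the same direction in all 4 horses without overlap of the groups. Of all tested genes 51.9% moved the same way in all 4 horses and 27.8% did not overlap. SUPT3H, whose span overlaps that of RUNX2 in the RefSeq table, rose from 372 ± 57.2 to 940.4 ± 331 (log2 fold change 1.28, limma adjusted p = 0.00669), whereas RUNX2 was not called.

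Since RUNX1 and RUNX3 are also blood cell factors, markers of blood cells were read beside them. Of 10 haematopoietic markers, 9 had a row, 7 were tested and LAPTM5 was called lower (log2 fold change -2.22, limma adjusted p = 0.0259), a call lost without the block (0.306). PTPRC, the pan-leukocyte antigen CD45, had 1.74, 110, 41.5 and 26.4 normalized counts in the untreated libraries of D, J, L and W and 1.19, 3.21, 23.0 and 7.21 in the treated ones. The log2 fold change of PTPRC was -1.90 (limma adjusted p = 0.112). Summed over the 9 genes, the markers held 651 to 2974 normalized counts in untreated and 804 to 1393 in treated libraries, most of them from CD68 and CORO1A, which had log2 fold changes of opposite sign (-0.77 and 0.94, neither called). The median log2 fold change of the 7 tested markers was -1.20, and 6 of the 7 were lower after treatment in D, L and W and 4 in J. The matching shares of all tested genes are not given here. None of the 9 was at 0 in all libraries. Of 8 endothelial markers 2 had a row and KDR was called higher, with 7.10 to 26.3 and 30.04 to 55.7 normalized counts in sum. Of the marrow stromal markers, 6 of 7 had a row and held 161816 to 355467 and 172849 to 271837, with THY1 called lower. This sum mixes changes of opposite sign. THY1 had a log2 fold change of -2.21 and ITGB1 one of 0.91 (limma adjusted p = 0.0159, short of the fold change threshold). The part of other cell types in the RUNX values was not tested, and in bulk RNA fewer cells of a type and less RNA per cell cannot be told apart.

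SOX4 and SOX11 belong to the same SOX subgroup, and of the pair SOX11 was called. SOX11 had 1142, 356, 597 and 237 normalized counts in the untreated libraries of D, J, L and W and 1852, 3133, 1086 and 1063 in the treated ones. It was higher after treatment in each horse, 8.80-fold in J, 4.48-fold in W, 1.82-fold in L and 1.62-fold in D, and the groups overlapped because the untreated level of D was above the treated levels of L and W. The mean was 583 ± 402 in untreated and 1784 ± 971 in treated cells (SD, n = 4). Its log2 fold change was 1.71 (SE 0.43; limma adjusted p = 0.0333, or 0.0479 without the block). This was the highest adjusted p of the 5 called factors. Without horse D or horse W the limma adjusted p was 0.0594 and 0.139, and without the intensity trend in limma 0.0532.

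SOX4 had 6265, 1910, 5690 and 5657 normalized counts in the untreated libraries of D, J, L and W and 4651, 4448, 3948 and 4164 in the treated ones. Untreated horse J was far below the other 3 untreated cultures, while the 4 treated cultures were nearly level (highest over lowest 1.18). The treated culture held 2.33 times the SOX4 of the untreated one in J, and the log2 change in D, L and W was -0.53 to -0.43. The log2 fold change over all horses was -0.05 with a 95% interval of -0.83 to 0.74 (limma adjusted p = 0.927). Without horse J it was -0.47 (limma adjusted p = 0.0108), short of the fold change threshold. Leaving out D, L or W instead gave 0.08, 0.12 and 0.09 (limma adjusted p = 0.902, 0.851 and 0.895). The ratio of SOX4 to SOX11 was lower in all 4 treated cultures, by -2.60 to -1.13 on the log2 scale (exact sign-flip permutation test, two-sided p = 0.125, the smallest possible).

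RUNX2 and SOX4 thus moved in horse J against the other 3 horses. This held for 2 of the 10 factors and for 16.5% of all tested genes. For horses D, L and W standing alone against the others the shares of all genes were 4.55%, 7.52% and 5.33%. The untreated library of J had a mean correlation of 0.932 with the other untreated libraries over the tested genes, against 0.951 to 0.957 for those. Of the 9 measured haematopoietic markers, the untreated library of J was the highest of the 4 untreated ones for 3 (CD68, CORO1A and PTPRC) and the lowest for 2 (CSF1R and TYROBP). CD68, a macrophage marker, held 2437 normalized counts there and 451 to 740 in the others, whereas CSF1R, the receptor of macrophage growth factor, held 1.35 there and 7.83 to 147 in the others. The part of blood cells in the values of horse J was not tested.

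Some osteoblast genes, SP7, ALPL and DLX5 among them, were also split between horse J and the others, while the 3 called lower fell in all 4 horses. Of 16 genes of osteoblasts and hypertrophic cartilage, 12 had a row and 11 were tested. Among the 11, 3 were called lower in limma (2 without the block), beside 7.31% of all tested genes, and 8 were not called. The median log2 fold change of the 11 was -0.99, beside 0.01 for all tested genes. By horse, 9 of the 11 were lower after treatment in D, 10 in L and 9 in W, but 5 in J. The share of all tested genes that were lower in each horse is not given here. SP7 (osterix), the osteoblast factor downstream of RUNX2, had 1129, 1029, 3310 and 1236 normalized counts in the untreated libraries of D, J, L and W and 434, 3705, 301 and 251 in the treated ones. Horse J alone was higher after treatment, and SP7 was not called (log2 fold change -1.32, limma adjusted p = 0.275). The following genes were singled out after their values were seen. ALPL, the alkaline phosphatase of mineralizing cells, had a log2 difference of 3.52 in J and of -4.29 to -2.03 in the others. DLX5, an upstream factor of RUNX2 and SP7, had one of 1.37 in J and of -2.24 to -1.19 in the others. IBSP, bone sialoprotein, had 35.7 and 9128 normalized counts in J, 1662 and 23.0 in L, and 9 and 8 reads in W, without and with TGF-β2. None of these 3 was called.

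**Figure D3:**
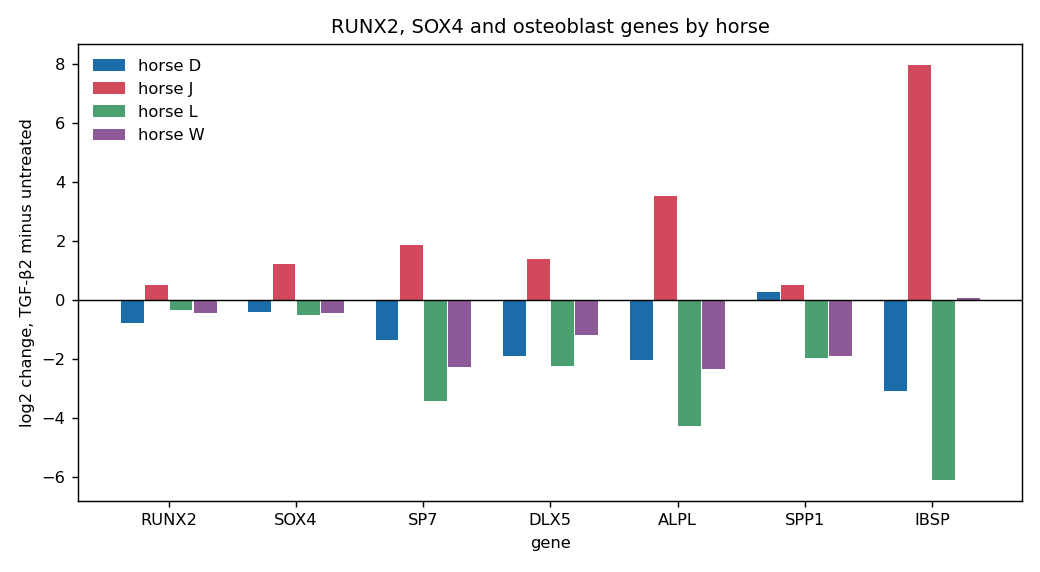
Log2 change after TGF-β2 (y axis, treated minus untreated) of RUNX2, SOX4 and 5 osteoblast genes in each horse (bars from 0, 1 bar per horse, no replicate within a horse). The bars of horse J point up for all 7 genes, and those of horse L point down for all 7; DLX5, ALPL, SPP1 and IBSP were chosen for display after their values were seen.

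The 3 osteoblast genes called lower were IFITM5, PTH1R and DLX3. IFITM5 (BRIL), a membrane protein of mineralizing osteoblasts, fell from 443 ± 127 to 22.5 ± 9.41 normalized counts (SD, n = 4), in all 4 horses, J included. Its log2 fold change was -4.30 (limma adjusted p = 0.00135). PTH1R, the parathyroid hormone receptor, had 124 ± 157 in untreated and 7.09 ± 9.86 in treated cells. It fell in limma (log2 fold change -4.14, adjusted p = 0.0236), with a change of -0.54 in J and of -5.73 to -4.93 in the others, where the treated libraries held 0 to 5 reads. DLX3, a homeobox factor of osteoblasts, had a log2 fold change of -1.80 (limma adjusted p = 0.0146), and 0.0850 without the block. MMP13, a collagenase that RUNX2 activates in hypertrophic cartilage, did not pass the filter; its untreated libraries held 5 to 300 reads and its treated ones at most 2.

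Of 13 cartilage genes that the SOX trio is known to activate, 4 had a row and were tested. In limma 1 rose and 1 fell, beside 6.83% and 7.31% of all tested genes. COL2A1, COL9A1, COL9A3, COL11A2, HAPLN1, MATN1, CNMD, SNORC and SCRG1 had no row. The median log2 fold change of -0.09 thus rests on 4 genes and leaves out most of the list. CHAD (chondroadherin) rose by 1.21 on the log2 scale and had 29.0 ± 10.2 normalized counts without TGF-β2 against 65.1 ± 12.1 with it (limma adjusted p = 0.0316). MATN3 (matrilin-3) fell from 26.1 ± 23.8 to 7.36 ± 5.29, with 2 to 12 reads in the treated libraries and a log2 fold change of -1.60 (limma adjusted p = 0.0179, or 0.115 without the block). COL9A2 and ACAN were not called. ACAN (aggrecan) held 198 normalized counts in the untreated library of L and 0 to 41.7 in all other libraries.

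Among 11 genes of tendon cells, 7 had a row, 6 were tested, 2 rose and 1 fell, beside 6.83% and 7.31% of all tested genes. The median log2 fold change of the 6 was 0.80, but the horses differed. The median was -0.01 in D, 2.25 in J, -0.74 in L and 1.04 in W. COMP, FMOD and TPPP3 were not called, at log2 fold changes of 1.11, 0.50 and -0.83. TNMD (tenomodulin), the mature tendon marker that SCX activates, had no row in the table used here, nor did THBS4, COL14A1 and KERA. DPT (dermatopontin), a small matrix protein that binds collagen fibrils, rose from 507 ± 409 to 6772 ± 6254 normalized counts (SD, n = 4), by 3.97 on the log2 scale (limma adjusted p = 0.00536). CILP (cartilage intermediate layer protein) rose from 22.4 ± 8.45 to 100.8 ± 26.9, with a log2 fold change of 2.13 (limma adjusted p = 0.00502). ABI3BP, a matrix-binding protein, fell from 1810.4 ± 1070.1 to 84.8 ± 57.2, with a log2 fold change of -4.42 (limma adjusted p = 9.60e-04). All 3, named because they were called, changed the same way in all horses without overlap. Among all tested genes 51.9% changed the same way in all horses and 27.8% did not overlap. EGR1 and EGR2 are zinc-finger factors that also act in tendon formation. EGR1 fell from 8582 ± 3516 to 1599.6 ± 666, by 2.44 on the log2 scale (limma adjusted p = 0.0179), with the smallest decrease in J, and EGR2 had a log2 fold change of 0.17 (limma adjusted p = 0.559).

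**Figure D4:**
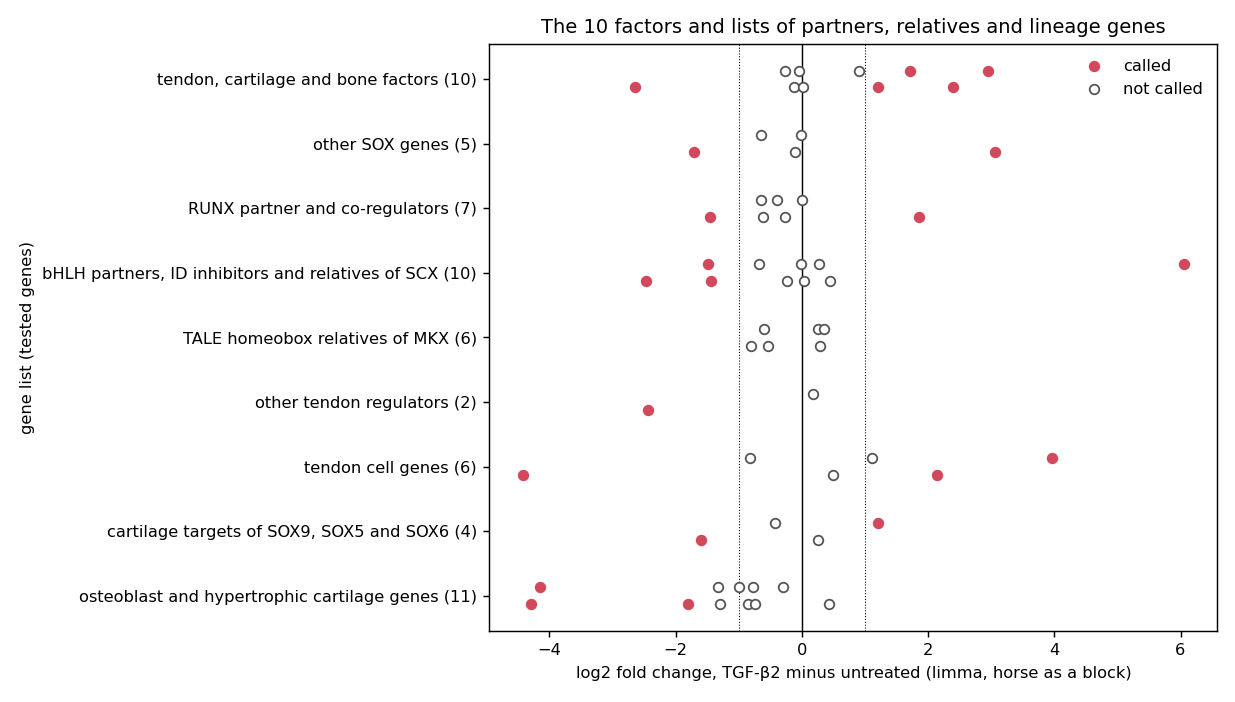
Log2 fold change after TGF-β2 (x axis, limma with the horse as a block) of the 10 factors and of each tested gene in 8 lists of their partners, relatives and lineage genes, with the number of tested genes in brackets. Filled points passed both thresholds and open points did not; dotted lines mark a log2 change of 1, vertical offsets only separate points, and the osteoblast list lies mostly left of zero.

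SCX binds DNA with E-proteins, and ID proteins block such partners. Of 10 bHLH partners, inhibitors and relatives of SCX, all 10 were tested, 1 rose and 3 fell, beside 6.83% and 7.31% of all tested genes. The median log2 fold change of the 10 was -0.12. The E-protein genes TCF3, TCF4 and TCF12 were not called, at 0.45, -0.01 and 0.03 on the log2 scale. Of the inhibitors, ID2 fell by 1.48 and ID4 by 1.44 on the log2 scale (limma adjusted p = 0.00380 and 0.00619), while ID1 and ID3 were not called (-0.67 and -0.24). TCF15 (paraxis), the close relative of SCX known from somites, held 1, 10, 1 and 0 reads in the untreated libraries of D, J, L and W and 215, 83, 112 and 154 in the treated ones. Its groups did not overlap, and its log2 fold change of 6.06 (limma adjusted p = 0.00423) depends on the pseudocount at these counts. TWIST1, a bHLH factor known to hold back RUNX2, fell from 3088 ± 654 to 550.0 ± 88.5 normalized counts (SD, n = 4), by 2.47 on the log2 scale (limma adjusted p = 0.00145). Among 6 tested TALE homeobox relatives of MKX none was called in limma, with or without the block, or in DESeq2. In limma with the block 14.1% of all tested genes were called. Of the 6 relatives, 2 had an unadjusted p under 0.05 in limma, and the median log2 fold change was -0.14. IRX3 was the lowest of them, at -0.81 (limma adjusted p = 0.00555).

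Beyond the 5 SOX genes followed above, 13 were listed, 5 had a row, and all 5 were tested. SOX21, best known from neural progenitors, rose from 17.7 ± 10.0 to 143 ± 29.3 normalized counts (SD, n = 4), by 3.07 on the log2 scale (limma adjusted p = 0.00423). SOX13, the third member of the subgroup of SOX5 and SOX6, fell from 260.1 ± 80.7 to 77.6 ± 17.3, with a log2 fold change of -1.71 (limma adjusted p = 0.00373). The treated and untreated libraries did not overlap in SOX21 or in SOX13, both named because they were called, beside 27.8% of all tested genes. SOX8, a relative of SOX9, had 25.9 ± 28.5 and 12.2 ± 8.76 normalized counts and was not called (limma adjusted p = 0.294), nor were SOX12 and SOX15.

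Over the 8 libraries, the genes whose log2 levels were most like those of SCX were PHLDB2, LAMA4 and ZNF704, with Pearson correlations of 0.985, 0.981 and 0.981. For MKX they were MTSS1L, MCRIP1 and PDE4D (0.992, 0.984 and 0.978), and SCX was number 19 in that order, at 0.934, while MKX was number 125 in that of SCX. SOX9 was closest to SRPRA, STT3A and CAND1 (0.988, 0.982 and 0.980), SOX5 to LOC100054764, CHURC1 and LOC111770678 (0.988, 0.987 and 0.986), and SOX11 to CSTF3, NKD1 and PECR (0.966, 0.964 and 0.963). These values describe 8 points that share the treatment and come from 4 horses, among 14907 genes. Between SCX and SOX9 the correlation was 0.612 and between SCX and SOX11 0.527, lower than the 0.934 between SCX and MKX.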

How the data were processed

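The 8 libraries (4 horses, each untreated and TGF-β2-treated) were made from poly(A) RNA and read from both ends. The authors used Trimmomatic 0.36 for trimming, STAR 2.5.2b for alignment to EquCab 3.0 and featureCounts (Subread 1.5.2) to count unique hits per gene. They deposited normalized counts, a signal obtained by dividing counts by a size factor per library. Of 15267 rows, 1 without a gene name was dropped; it held 0.0281% to 0.0531% of a library's signal.

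Deposited values were whole multiples of 1 step per library (100% of values, tolerance 0.01), from which reads were recovered; 3 reads corresponded to 2.02 to 3.60 normalized counts. Genes with at least 10 normalized counts in 4 libraries were tested with limma 3.58.1 in R 4.3.3 (eBayes with trend, log2(normalized count + 1)), with the horse as a block, since cultures of a horse are paired. Such pairs deviated together from the group means (r = 0.386 to 0.609; different horses -0.159 on average). DESeq2 1.42.0 and edgeR 4.0.16 were run on recovered reads. Log2 changes understate those of low genes. The limma p-values with the block weigh a mean change against its spread between 4 horses. The variances are moderated towards those of genes of like level. With a single culture per horse and treatment, spread between horses and between cultures cannot be told apart.

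The fits were tested on simulated data, in which a planted change had the same size in every horse. How they deal with changes that differ between horses was not tested. The factors, lists and tests were chosen with earlier results of these data known. Named are the 10 factors, up to 4 called genes per list with the largest change, CBFB, SP7, EGR1, EGR2 and TNMD, and the 3 genes most like each called factor; others named were chosen after their values were seen. RefSeq symbols (TB-T2T) matched all 10 factors and were used for neighbouring genes only. No sequence or coordinate is given.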

Additional observations from a re-analysis of the deposited data

Results flagged for a closer look

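Among the 20 groups of 4 libraries (10 factors, untreated and treated), 2 held 1 library far from the other 3. In these the ratio of gap to range passed Dixon's 95% critical value. The ratio was taken on normalized counts and not on the log2 scale of the fits. Chance flags about 1 in 20 groups only where values are normally distributed, which was not tested. SOX6 in the untreated culture of horse L, at 444 normalized counts, lay above the other untreated cultures, with a ratio of 0.840. SOX4 in the untreated culture of horse J, at 1910 normalized counts, lay below the others, with a ratio of 0.860. Without horse L the log2 fold change of SOX6 was 1.15 (limma adjusted p = 0.0657). SOX6 stood at 0.83, 0.60 and 1.04 without D, J or W (limma adjusted p = 0.211, 0.0946 and 0.141). Without horse J the log2 fold change of SOX4 was -0.47 (limma adjusted p = 0.0108). Leaving out D, L or W instead gave SOX4 values of 0.08, 0.12 and 0.09.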

How the results depend on the processing

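SCX, MKX and SOX5 were called under all 18 alternatives, with log2 fold changes of 2.09 to 2.59, 2.51 to 3.27 and -2.95 to -2.40. SOX9 and SOX11 were called under 14 of 18. At an adjusted p under 0.01, 3 of the 10 factors were called, 2 of them higher, and SOX9 (1.21) and SOX11 (1.71) were lost. Total scaling, under which the median gene stood at -0.30, left SOX9 at 0.90 and turned RUNX3 to -0.29; the limma fit without trend lost SOX11 at 1.71. With 1 horse left out (genes then needed 10 normalized counts in 3 libraries), 3 to 5 factors were called, 2 to 4 of them higher. The fits without horse D and without horse W called 3, and the number of all genes called dropped from 2108 to 1176 and 1085. That number was 2486 without horse J and 1890 without horse L. Across these fits SOX9 ranged from 0.96 to 1.44, SOX11 from 1.24 to 2.05, SOX4 from -0.47 to 0.12, RUNX3 from -0.18 to 0.11 and RUNX1 from -0.28 to 0.060. The cause of these moves was not tested. Without the replicate block 5 factors were called, and leaving it out changed no call of a factor, although it ended those of MATN3, DLX3 and LAPTM5. DESeq2, edgeR, the other pseudocounts and the other filters also called 5 factors, 4 of them higher. Of all genes 1116 were called at an adjusted p under 0.01 and 4610 without a fold change threshold. SOX5, with 8 to 24 treated reads, is the factor most limited by depth.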
